A study of Mus musculus with 35 samples.

Results

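The Cyp2a, Cyp2c, Cyp2d, Cyp2j and Cyp3a genes encode mouse cytochrome P450 enzymes that metabolize drugs, steroids and fatty acids, most of them in liver. They were taken here as every gene of the array whose symbol begins with one of these 5 subfamily names followed by a number and that had a probe set annotated to that gene alone. This gave 38 of the 18820 genes measured: 3 Cyp2a, 13 Cyp2c, 10 Cyp2d, 6 Cyp2j and 6 Cyp3a genes. None of the 38 had more than 1 such probe set. The RefSeq table lists Cyp2d13 and Cyp2d37-ps as transcribed pseudogenes and the other 36 as protein-coding.

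P450 enzymes are heme proteins of the endoplasmic reticulum that insert an oxygen atom into their substrates, with electrons passed on by P450 reductase and cytochrome b5. In hepatocytes the Cyp3a, Cyp2c and Cyp2a enzymes oxidize drugs, steroids and bile acids and are switched on by nuclear receptors that sense foreign compounds, while many Cyp2c and Cyp2j enzymes also turn arachidonic acid into epoxides and hydroxy acids that act as local signals. Several mouse Cyp2d, Cyp2c and Cyp3a genes are expressed at different levels in males and females, under the control of the growth hormone secretion pattern.

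The study measured liver RNA on 35 Affymetrix whole-transcript arrays from 3 mouse models of liver cancer. Diethylnitrosamine (DEN), a chemical carcinogen, was injected intraperitoneally at 10 mg/kg on day 15 of life and livers were taken at 9 months, which gave 5 tumors and 5 samples of non-tumorous liver (NTL), with 5 livers of untreated mice as controls. The tg1223 mice overexpressed lymphotoxin alpha and beta (LT) specifically in liver and were followed for 12 months, which gave 3 tumors and 5 NTL samples. Mice with TRE-MYC and LAP-tTA, in which a liver-specific promoter drives the transactivator of a MYC transgene, were kept on chow with 200 mg/kg doxycycline until 8 weeks of age to keep MYC off, and gave 5 tumors and 3 NTL samples. The LT and MYC models shared 4 control livers from transgene-negative mice, so that comparisons of both models with these controls are not independent. The labels describe the controls as matched for sex and age without giving either, name no strain, and do not state the age of the MYC mice at sampling. By mouse identifier, no tumor shared its animal with an NTL sample, and the MYC NTL samples carry identifiers beginning with WT although they are labelled as MYC-overexpressing. An identifier stem is shared by DEN tumors 1 and 4, by DEN tumors 3 and 5, and by LT tumors 1 and 2, and such pairs may come from 1 mouse.

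Values are log2 signals after robust multi-array averaging (RMA). A probe set's brightness depends on its own sequence, so signals are compared between arrays and not between genes. Array medians lay between 5.59 and 5.73, and the first quartile of all genes lay between 4.13 and 4.24. Cyp2c65, Cyp2c66, Cyp2j11, Cyp2j12 and Cyp3a57 had means below that quartile in every group, where small changes are hard to separate from background. Albumin lay between 13.59 and 13.78 on all 35 arrays, and the mean of 9 hepatocyte markers lay between 13.07 and 13.32 on single arrays. Xist, which is transcribed from the silenced X chromosome of female cells, lay between 11.74 and 12.22 on 9 arrays and between 3.54 and 6.24 on the other 26. The 9 were the 3 LT tumors, 4 of the 5 LT NTL arrays (all but replicate 2) and 1 array in each control group (replicate 3). All DEN and MYC tumor and NTL arrays were thus low in Xist. In bulk tissue, fewer cells of a type and less RNA per cell cannot be told apart.

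More of the 38 genes were lower than higher in tumors of each model, as a comparison of tumor with NTL in one linear model (limma, adjusted over all 18820 genes and called at an adjusted p under 0.05) showed. In DEN tumors 19 of 38 were lower and 0 higher than in DEN NTL, where 16.7% of all genes were called lower and 15.6% higher. In LT tumors 10 were lower and 2 higher than in LT NTL, where 9.73% of all genes were called lower and 10.7% higher. In MYC tumors 14 were lower and 0 higher than in MYC NTL, where 10.3% of all genes were called lower and 11.5% higher. The median change of the 38 genes was -0.59 in DEN, -0.32 in LT and -0.44 in MYC on the log2 scale, beside -0.04, -0.03 and -0.03 over all genes. At an unadjusted p under 0.05, 22, 20 and 18 of the 38 genes changed in either direction. By subfamily, 9 of 13 Cyp2c, 4 of 10 Cyp2d, 2 of 6 Cyp2j, 4 of 6 Cyp3a and 0 of 3 Cyp2a genes were lower in DEN tumors. In LT tumors 6 of 13 Cyp2c, 2 of 10 Cyp2d and 2 of 6 Cyp2j genes were lower, and in MYC tumors 4 of 13 Cyp2c, 8 of 10 Cyp2d, 1 of 6 Cyp2j and 1 of 3 Cyp2a genes. With arrays of a shared identifier stem averaged, 5 of the 12 LT calls remained (Cyp2c50, Cyp2c54, Cyp2c66, Cyp2c67 and Cyp2d13). With only the LT tumor and NTL arrays in the fit, 2 of the 12 remained (Cyp2c66 and Cyp2c67). That fit called 615 of all genes, beside 3838 in the fit of all groups. With only the DEN tumor and NTL arrays in the fit, 22 of the 38 were lower, 18 of them shared with the 19 above. That fit called 5484 of all genes, beside 6068. With only the MYC tumor and NTL arrays 12 were lower, 10 of them shared with the 14 above, and 3431 of all genes were called, beside 4106.

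**Figure D1:**
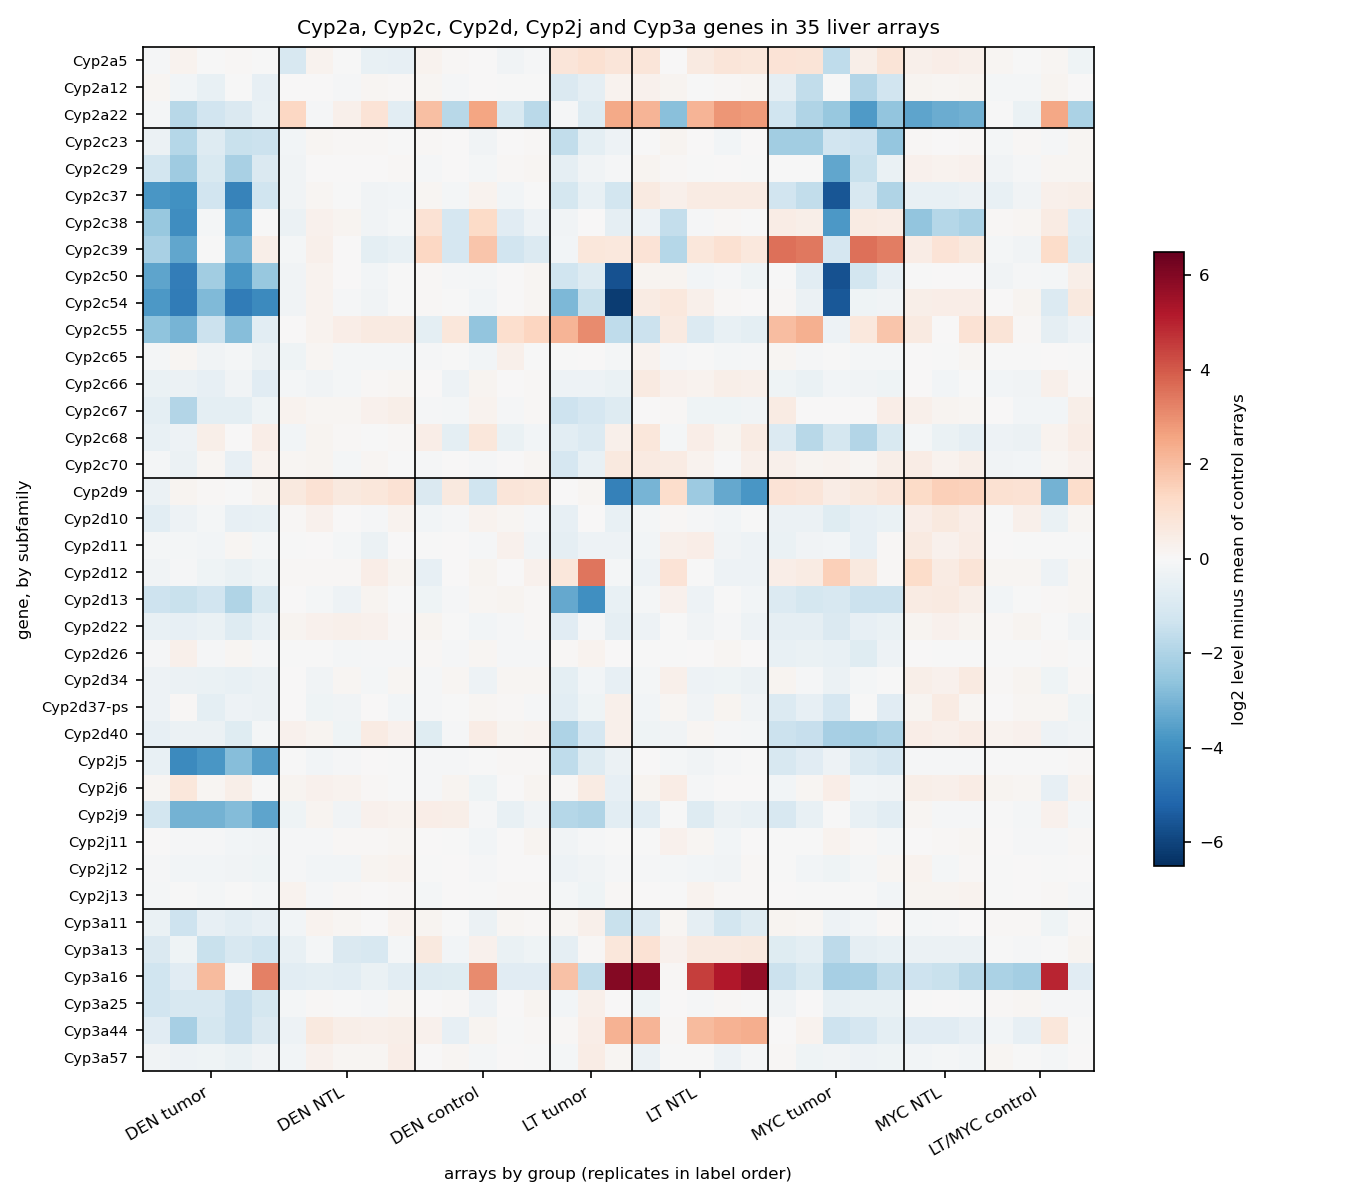
Signal of the 38 P450 genes (rows, by subfamily) on each of the 35 arrays (columns, by group), as log2 level minus the mean of the model's own control arrays; blue is lower and red higher. The darkest blue cells include Cyp2c50, Cyp2c54 and Cyp2j5 in DEN tumors, and Cyp2c50 and Cyp2c54 in 1 LT and 1 MYC tumor; the darkest red cells are Cyp3a16 on arrays with high Xist.

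**Figure D2:**
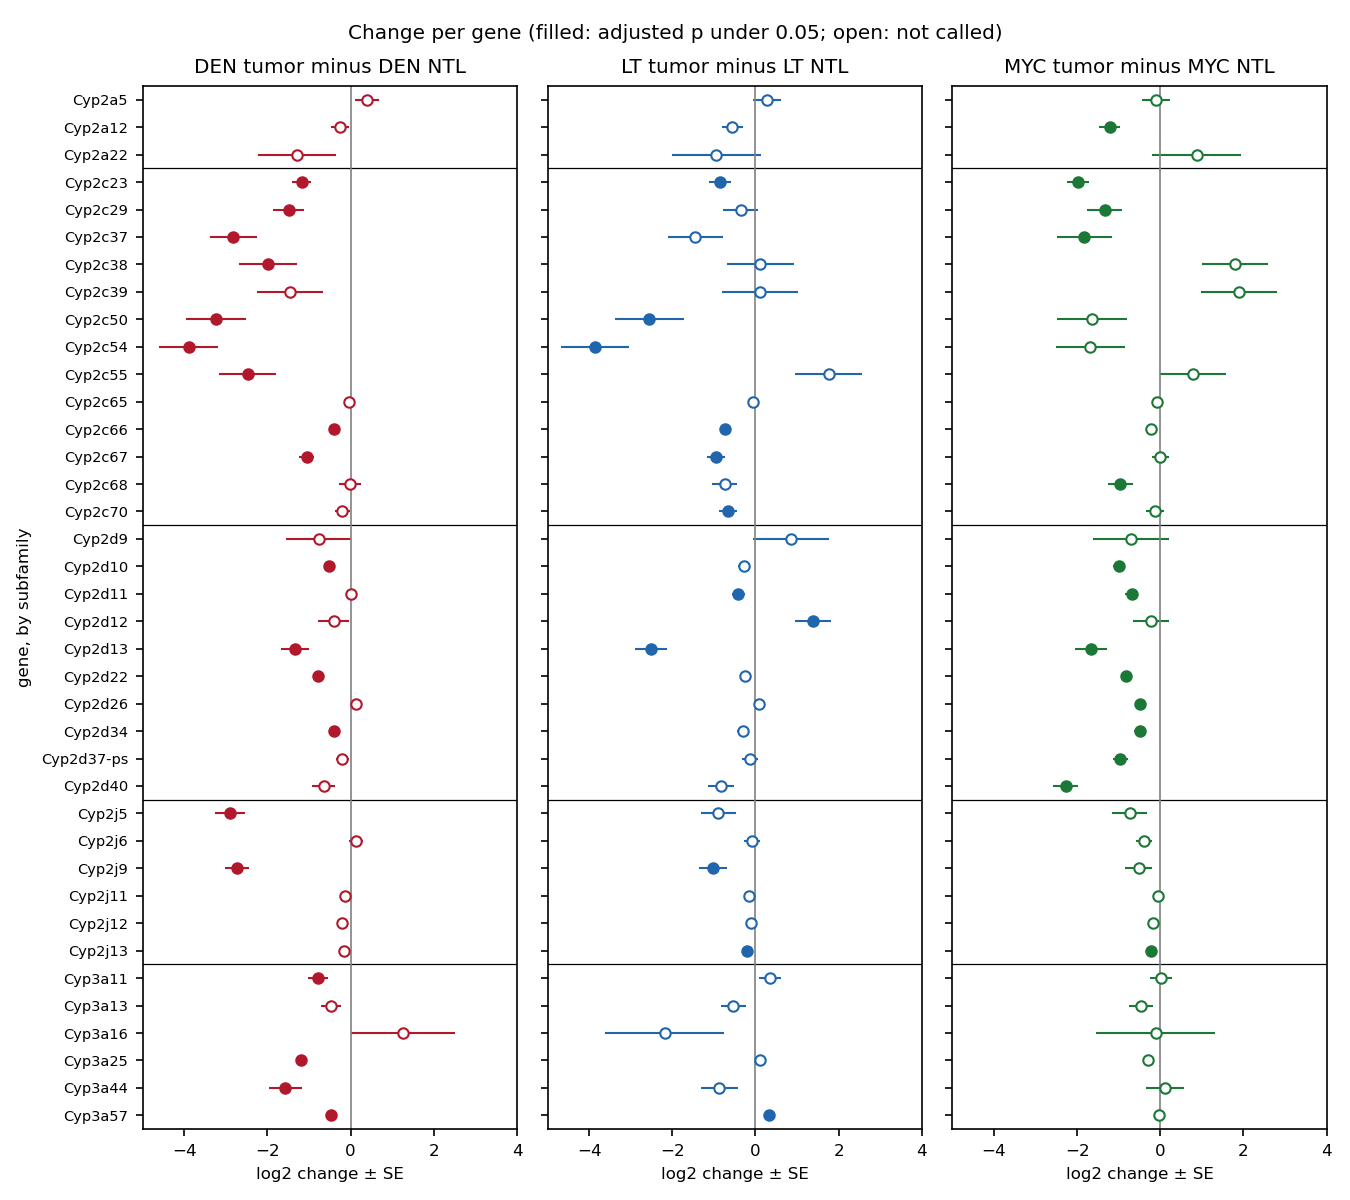
Log2 change in tumor relative to NTL for each of the 38 genes (rows) in the DEN, LT and MYC models, with bars of 1 SE from the fit; filled points are called at an adjusted p under 0.05. Filled points lie below 0 for 19, 10 and 14 genes, and above 0 for 0, 2 and 0 genes.

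Among the Cyp2c genes, the neighbouring Cyp2c37, Cyp2c54 and Cyp2c50 had the largest falls in DEN tumors. The 3 genes lie next to each other on chromosome 19 with no other protein-coding gene starting between them, and their products, like most of the subfamily, oxidize arachidonic acid. Of the 3, RefSeq promoter windows (250 bases before to 50 after the start, build GRCm38.p6, plus strand) were at hand for Cyp2c37 at chr19:39992174-39992473 and Cyp2c50 at chr19:40089429-40089728. They are printed because both genes fell in the same tumors and their windows are the most alike of the 55 Cyp2c pairs, with 86.6% of aligned positions identical, where the median pair had 51.4%. Capitals mark the 36 bases of each window that do not match the other one in a global alignment, and the last 50 bases lie after the start.
Cyp2c37: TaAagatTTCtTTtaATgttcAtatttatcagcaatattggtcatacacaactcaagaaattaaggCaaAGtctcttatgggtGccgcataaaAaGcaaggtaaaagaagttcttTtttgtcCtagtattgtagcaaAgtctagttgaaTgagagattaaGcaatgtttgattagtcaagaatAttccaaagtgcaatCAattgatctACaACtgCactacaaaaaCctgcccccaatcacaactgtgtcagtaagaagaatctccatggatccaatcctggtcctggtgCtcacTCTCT
Cyp2c50: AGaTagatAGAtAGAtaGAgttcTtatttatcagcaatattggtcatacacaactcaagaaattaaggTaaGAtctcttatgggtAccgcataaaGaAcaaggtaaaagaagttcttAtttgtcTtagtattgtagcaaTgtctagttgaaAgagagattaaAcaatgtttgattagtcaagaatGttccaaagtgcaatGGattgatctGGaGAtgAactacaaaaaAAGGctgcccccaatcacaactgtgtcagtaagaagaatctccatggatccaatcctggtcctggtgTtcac

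Cyp2c54 read 8.52, 7.70, 9.36, 7.69 and 8.12 in the DEN tumors, against 12.01, 12.47, 12.16, 11.99 and 12.22 in DEN NTL. All 5 tumors lay below every NTL sample, and the change was -3.89 ± 0.71 (SE), 14.9-fold lower, at an adjusted p of 8.28e-05. Cyp2c50 read 8.67, 7.59, 9.83, 8.34 and 9.61 in the DEN tumors, against 11.85, 12.31, 12.10, 11.92 and 12.07 in DEN NTL. Again no values overlapped, with a change of -3.24 ± 0.72 (adjusted p = 0.000819). Cyp2c37 read 9.04, 8.89, 11.58, 8.50 and 11.53 in the DEN tumors, against 12.60, 12.99, 12.79, 12.62 and 12.66 in DEN NTL. DEN tumors 3 and 5, which share an identifier stem, kept more of the Cyp2c37 signal than the other 3, and the change over all 5 was -2.82 ± 0.57 (adjusted p = 0.000261).

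The same 2 DEN tumors stood above the others for further Cyp2c genes. Cyp2c38, an arachidonic acid epoxygenase, read 10.67 and 10.81 in DEN tumors 3 and 5 and 8.37, 6.79 and 7.25 in tumors 1, 2 and 4, against 10.42 to 11.11 in DEN NTL. Cyp2c39, a retinoic acid hydroxylase, read 8.41 and 8.78 in DEN tumors 3 and 5 and 6.30, 5.05 and 5.39 in the other 3, against 7.78 to 8.76 in DEN NTL. For both genes tumors 3 and 5 therefore lay within or near the NTL range and tumors 1, 2 and 4 below it. Cyp2c38 was called lower at -1.99 ± 0.69 (adjusted p = 0.0271), which was lost when DEN NTL replicate 2 (-1.91) or 3 (-1.93), or DEN tumor replicate 1 (-1.89), 2 (-1.49) or 4 (-1.61) was left out. The Cyp2c38 call was also lost with only the DEN tumor and NTL arrays in the fit. Cyp2c39 was not called at -1.46 ± 0.79. Cyp2c55 fell by 2.48 ± 0.69 (adjusted p = 0.00626), with DEN tumors 3 and 5 at 7.93 and 8.63, the other 3 at 6.29 to 6.69, and DEN NTL at 9.34 to 9.92.

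Cyp2c29, a drug-inducible epoxygenase, read 11.87, 10.79, 12.09, 10.99 and 12.15 in DEN tumors, against 12.88, 13.11, 13.09, 13.12 and 13.15 in DEN NTL. All tumors lay below all NTL samples, at -1.49 ± 0.37 (adjusted p = 0.00203). Cyp2c23, an arachidonic acid epoxygenase, read 12.35, 10.89, 11.91, 11.29 and 11.35 in DEN tumors, against 12.55, 12.84, 12.80, 12.81 and 12.69 in DEN NTL, a fall of 1.18 ± 0.23 (adjusted p = 0.00015) without overlap. Cyp2c67 fell by 1.06 ± 0.18 and the dim Cyp2c66 by 0.41 ± 0.10. Cyp2c70, which in mice makes muricholic acids by hydroxylating bile acids, was not called in DEN tumors (-0.20 ± 0.18), nor were Cyp2c68 (-0.02 ± 0.26) and the dim Cyp2c65 (-0.05 ± 0.09). Apart from Cyp2c38, these Cyp2c calls in DEN tumors stood whichever array was left out.

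In LT tumors 6 of 13 Cyp2c genes were lower, again led by Cyp2c54 and Cyp2c50, and here 1 tumor had most of the loss. Cyp2c54 read 8.64, 10.07 and 5.37 in the 3 LT tumors, against 12.09, 12.21, 11.89, 11.62 and 11.59 in LT NTL. Cyp2c50 read 10.63, 11.05 and 6.26 in the LT tumors, against 12.09, 12.10, 11.72, 11.81 and 11.61 in LT NTL. LT tumor 3 was the lowest for both, yet all 3 tumors lay below all NTL samples. The changes were -3.85 ± 0.82 for Cyp2c54 (adjusted p = 0.00119) and -2.55 ± 0.84 for Cyp2c50 (adjusted p = 0.0286). Without LT tumor replicate 3 they were -2.52 (adjusted p = 0.0193) for Cyp2c54 and -1.03 (adjusted p = 0.364) for Cyp2c50. Every value without that tumor rests on LT tumors 1 and 2, which may be 1 mouse, with the spread taken from all groups. With only the LT tumor and NTL arrays in the fit, the Cyp2c54 and Cyp2c50 calls over all 3 tumors were lost. Cyp2c37 read 11.26, 11.93 and 11.20 in the LT tumors, against 12.74 to 12.99 in LT NTL, with no overlap but no call at -1.45 ± 0.66. It was called lower with only the LT tumor and NTL arrays in the fit.

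The other LT calls in the subfamily were smaller. Cyp2c67 fell by 0.95 ± 0.21 and the dim Cyp2c66 by 0.74 ± 0.12, and both calls stood whichever LT array was left out. Cyp2c23 read 11.02, 11.98 and 12.28 in the LT tumors, against 12.56, 12.79, 12.65, 12.44 and 12.65 in LT NTL. The 3 tumors lay below all NTL samples at -0.86 ± 0.26 (adjusted p = 0.0183), but the change was -0.49 (adjusted p = 0.303) without LT tumor replicate 1 and -0.73 (adjusted p = 0.0559) with tumors 1 and 2 averaged. Cyp2c70 fell by 0.66 ± 0.21 (adjusted p = 0.0265), with LT tumor 3 at 12.97 above every NTL sample and tumors 1 and 2 at 11.26 and 11.84 below them. Its call was lost without LT NTL replicate 1 (-0.60) or 2 (-0.61) or LT tumor replicate 1 (-0.28) or 2 (-0.57), and the change was -1.14 without LT tumor replicate 3 and -0.43 (not called) with tumors 1 and 2 averaged. Cyp2c29 (-0.35 ± 0.42), Cyp2c38 (0.12 ± 0.80), Cyp2c39 (0.11 ± 0.91), Cyp2c65 (-0.05 ± 0.10) and Cyp2c68 (-0.74 ± 0.30) were not called.

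Cyp2c55 showed how unlike the 3 LT tumors were. It read 9.42, 10.30 and 5.61 in LT tumors, against 5.86, 7.81, 6.37, 6.75 and 6.62 in LT NTL, so tumors 1 and 2 lay above all NTL samples and tumor 3 below them. The change of 1.76 ± 0.80 was not called over all 3 tumors, and its size without LT tumor replicate 3 was 3.18.

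In MYC tumors 4 of 13 Cyp2c genes were lower, and Cyp2c23 changed most. It read 10.34, 10.36, 11.38, 11.24 and 10.10 in MYC tumors, against 12.68, 12.63 and 12.68 in MYC NTL. The gap between the groups was wider than either group's spread, with a change of -1.98 ± 0.26 (adjusted p = 2.65e-06). Cyp2c68 fell by 0.96 ± 0.30 (adjusted p = 0.0212), a call lost without MYC NTL replicate 1 (-0.82) or 2 (-0.99) or MYC tumor replicate 2 (-0.85) or 4 (-0.82). Cyp2c29 and Cyp2c37 were called lower as well, at -1.34 ± 0.42 (adjusted p = 0.0216) and -1.83 ± 0.66 (adjusted p = 0.0443).

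A single MYC tumor, replicate 3, stood apart for Cyp2c37, Cyp2c38, Cyp2c39, Cyp2c50 and Cyp2c54, whereas Cyp2c67, Cyp2c68 and Cyp2c70 lay there within the range of the other 4 tumors. Cyp2c54 read 11.63, 11.14, 6.04, 11.25 and 11.32 in MYC tumors, against 11.91, 11.99 and 11.95 in MYC NTL. Cyp2c50 read 11.87, 11.20, 6.24, 10.69 and 11.38 in MYC tumors, against 11.89, 11.92 and 11.95 in MYC NTL. Neither was called (-1.68 ± 0.82 and -1.65 ± 0.84), although all 5 tumors lay below the NTL samples. Cyp2c37 read 11.15, 10.80, 6.86, 11.38 and 10.44 in MYC tumors, against 11.91, 11.94 and 12.02 in MYC NTL. Its fall was lost without MYC NTL replicate 1 (-1.85), 2 (-1.84) or 3 (-1.79) or MYC tumor replicate 3 (-1.01) or 5 (-1.91). Cyp2c29 read 12.66, 12.66, 9.33, 11.26 and 12.26 in MYC tumors, against 12.97, 12.94 and 13.01 in MYC NTL. Replicate 3 was again the lowest, and the call stood at -0.77 (adjusted p = 0.0341) without it but was lost without MYC NTL replicate 1 (-1.34), 2 (-1.36) or 3 (-1.33). The Cyp2c37 and Cyp2c29 calls were both lost with only the MYC tumor and NTL arrays in the fit.

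Relative to MYC NTL, Cyp2c38 and Cyp2c39 ran the other way in the remaining MYC tumors. Cyp2c39 read 12.20, 12.04, 7.49, 12.18 and 11.91 in MYC tumors, against 9.09, 9.50 and 9.25 in MYC NTL. Cyp2c38 read 11.86, 11.78, 7.64, 11.91 and 11.88 in MYC tumors, against 8.80, 9.51 and 9.32 in MYC NTL. In 4 of 5 tumors both genes were above every NTL sample, and in replicate 3 both were below. Neither was called over all 5 tumors (1.89 ± 0.91 for Cyp2c39 and 1.80 ± 0.80 for Cyp2c38). Without MYC tumor replicate 3 the changes were 2.80 (adjusted p = 0.00908) for Cyp2c39 and 2.65 (adjusted p = 0.00433) for Cyp2c38. Cyp2c38 read 11.45, 11.49, 11.89 and 10.68 in the LT/MYC controls, so that MYC NTL lay below all of them. The 4 higher MYC tumors lay within or just above the range of these controls. MYC NTL minus controls was not called for Cyp2c38, but was called with only those groups in the fit. The remaining Cyp2c genes were not called in MYC tumors: Cyp2c55 (0.78 ± 0.80), Cyp2c65 (-0.09 ± 0.10), Cyp2c66 (-0.22 ± 0.12), Cyp2c67 (0.00 ± 0.21) and Cyp2c70 (-0.13 ± 0.21).

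**Figure D3:**
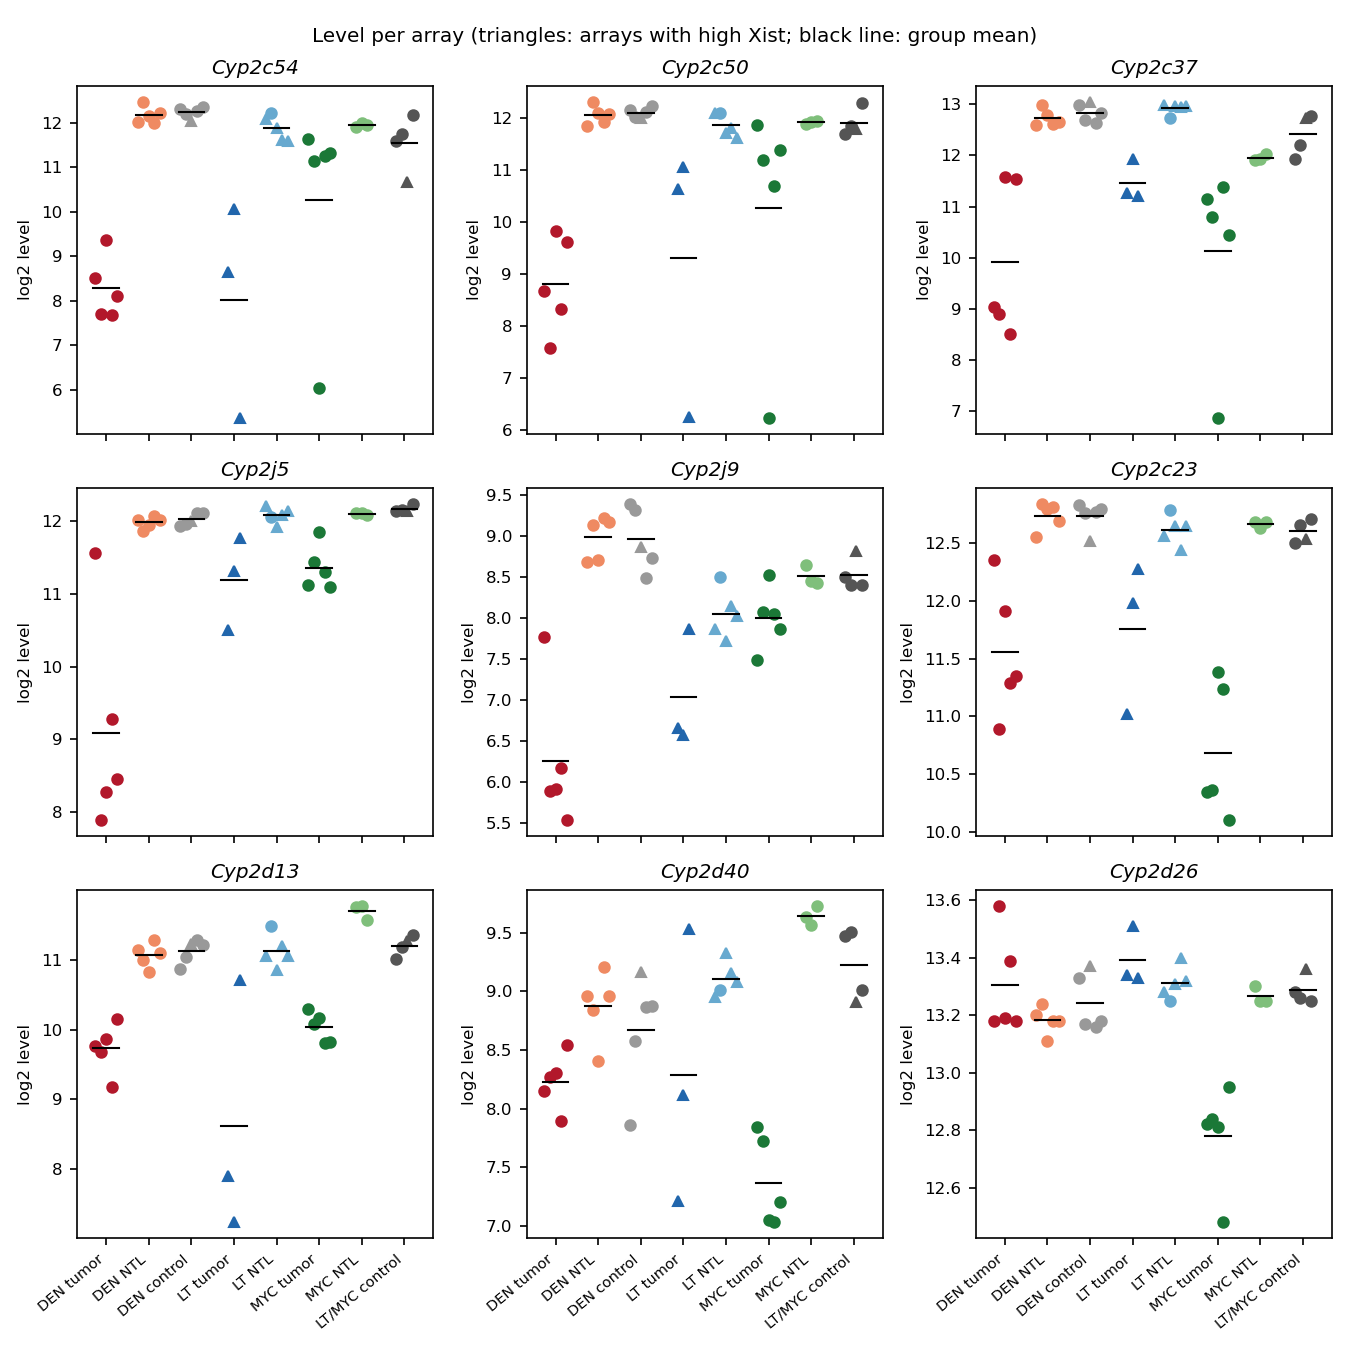
Log2 level (vertical axis) of 9 genes on each array, by group (horizontal axis); triangles are arrays with high Xist, circles arrays with low Xist, and the black line is the group mean. Cyp2c54, Cyp2c50 and Cyp2c37 lie below 7 in MYC tumor replicate 3, Cyp2j5 and Cyp2j9 have their lowest group mean in DEN tumors, and Cyp2d40 is at 7.84 or below in every MYC tumor.

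Of the Cyp2j genes, whose products make epoxides from arachidonic acid, Cyp2j5 and Cyp2j9 fell in DEN tumors and the other 4 did not pass the test there. Both genes lie next to each other on chromosome 4. Their RefSeq windows (GRCm38.p6, minus strand, chr4:96664070-96664369 for Cyp2j5 and chr4:96591436-96591735 for Cyp2j9) are printed as a counterpart to the Cyp2c pair, since these genes also fell together but their windows were 46.2% identical, near the median of 46.9% over the 15 Cyp2j pairs. Capitals mark the letters TATAAA on either strand, found 128 bases before the start of Cyp2j5 and not in the Cyp2j9 window.
Cyp2j5: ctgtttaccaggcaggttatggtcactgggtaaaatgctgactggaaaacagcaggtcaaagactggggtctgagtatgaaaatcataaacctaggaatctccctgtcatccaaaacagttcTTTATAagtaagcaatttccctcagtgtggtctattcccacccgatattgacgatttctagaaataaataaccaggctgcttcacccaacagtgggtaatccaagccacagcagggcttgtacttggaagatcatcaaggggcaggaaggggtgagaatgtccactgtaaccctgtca
Cyp2j9: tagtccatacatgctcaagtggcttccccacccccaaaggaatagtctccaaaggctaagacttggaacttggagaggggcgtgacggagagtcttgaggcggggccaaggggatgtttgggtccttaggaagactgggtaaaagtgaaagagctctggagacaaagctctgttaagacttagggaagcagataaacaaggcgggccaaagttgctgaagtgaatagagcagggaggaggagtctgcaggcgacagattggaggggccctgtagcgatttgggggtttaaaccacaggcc

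The letters TATAAA stood in the windows of 20 of the 31 genes of the 5 subfamilies that have one, against 13.6% of all 32851 windows. CAAAGTCCA, a core read by HNF4, stood in 6 of the 31 (Cyp2c65, Cyp2c67, Cyp2c68, Cyp2c70, Cyp3a11 and Cyp3a16), against 0.475% of all windows. TTCNNNGAA, a STAT core, stood in 2 (Cyp2j11 and Cyp2j12), against 8.3% of all windows. TTGCGNAA, a C/EBP core, stood in 0 of the 31, against 0.798% of all windows, and the palindromic HNF1 motif in 0, against 0.00913% of all windows. Both strands were searched for each. None of the 4 printed windows holds a motif other than TATAAA. The 7 genes with no entry are Cyp2c23, Cyp2c54, Cyp2d12, Cyp2d13, Cyp2d22, Cyp2d34 and Cyp2d37-ps.

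Cyp2j5 read 11.56, 7.89, 8.27, 9.28 and 8.45 in DEN tumors, against 12.02, 11.87, 11.95, 12.08 and 12.02 in DEN NTL. Cyp2j9 read 7.76, 5.89, 5.91, 6.16 and 5.53 in DEN tumors, against 8.68, 9.13, 8.71, 9.22 and 9.17 in DEN NTL. DEN tumor 1 was the highest tumor for both genes but still lay below every NTL sample. The changes were -2.90 ± 0.37 for Cyp2j5 (7.45-fold lower, adjusted p = 3.63e-07) and -2.73 ± 0.29 for Cyp2j9 (6.63-fold lower, adjusted p = 1.33e-08). Cyp2j6 (0.12 ± 0.17), the dim Cyp2j11 (-0.14 ± 0.08) and Cyp2j12 (-0.20 ± 0.08), and Cyp2j13 (-0.16 ± 0.06) were not called.

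In LT and MYC tumors the Cyp2j changes were smaller. Cyp2j5 read 10.50, 11.32 and 11.77 in LT tumors, against 12.21, 12.06, 11.92, 12.09 and 12.14 in LT NTL. It read 11.13, 11.44, 11.85, 11.30 and 11.10 in MYC tumors, against 12.11, 12.11 and 12.09 in MYC NTL. No tumor overlapped its NTL group in either model, but -0.89 ± 0.42 in LT and -0.74 ± 0.42 in MYC were not called. With only the groups compared in the fit, Cyp2j5 was called lower in MYC tumors, both against MYC NTL and against the LT/MYC controls. The DEN change of Cyp2j5 minus that in LT was -2.0 ± 0.56 (adjusted p = 0.0153) and minus that in MYC -2.16 ± 0.56 (adjusted p = 0.00781). The first of these was lost with only the DEN and LT tumor and NTL arrays in the fit. Cyp2j9 was called in LT tumors at -1.02 ± 0.33 (adjusted p = 0.0272), lost without LT NTL replicate 2 (-0.90) or LT tumor replicate 1 (-0.83) or 2 (-0.79) or with those 2 tumors averaged (-0.81), and was not called in MYC (-0.52 ± 0.33). The DEN change of Cyp2j9 minus that in LT was -1.71 ± 0.44 (adjusted p = 0.0081) and minus that in MYC -2.21 ± 0.44 (adjusted p = 0.000697).

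Cyp2j13, near the lower quartile of signal, was called lower in LT (-0.21 ± 0.07) and MYC (-0.23 ± 0.07). The LT call was lost in 6 of 8 leave-one-out fits, over which the change ran from -0.30 to -0.13, smallest in size without LT tumor replicate 2, and with LT tumors 1 and 2 averaged (-0.16). The MYC call was lost in 4 of 8, with changes of -0.24 to -0.19, and with only the MYC tumor and NTL arrays in the fit. Cyp2j6 (-0.09 ± 0.19 in LT and -0.40 ± 0.19 in MYC), Cyp2j11 (-0.16 ± 0.09 and -0.06 ± 0.09) and Cyp2j12 (-0.10 ± 0.09 and -0.17 ± 0.09) were not called in either.

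Of the Cyp3a genes 4 of 6 fell in DEN tumors, and 0 of 6 in LT or MYC tumors, where by limma 1 gene each had an unadjusted p under 0.05 in either direction. Cyp3a25, a liver Cyp3a, read 11.56, 11.78, 11.76, 11.30 and 11.69 in DEN tumors, against 12.69, 12.91, 12.78, 12.74 and 12.92 in DEN NTL. The groups were tight and did not overlap, and the change was -1.19 ± 0.10 (adjusted p = 4.41e-10), beside 0.10 ± 0.12 in LT and -0.30 ± 0.12 in MYC. The difference of these changes was -1.29 ± 0.16 between DEN and LT (adjusted p = 3.31e-06) and -0.90 ± 0.16 between DEN and MYC (adjusted p = 0.000204). Cyp3a11, the main inducible Cyp3a of mouse liver and counterpart of human CYP3A4, read 12.25, 11.29, 12.15, 11.98 and 12.12 in DEN tumors, against 12.49, 12.90, 12.80, 12.67 and 12.88 in DEN NTL. It fell by 0.79 ± 0.24 without overlap (adjusted p = 0.0102), DEN tumor 2 being the lowest.

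Cyp3a11 was not called in the other models. It read 12.82, 13.04 and 11.27 in LT tumors, against 11.81, 12.83, 12.10, 11.52 and 11.85 in LT NTL (0.35 ± 0.27), and without LT tumor replicate 3 the change was 0.91. It read 12.88, 12.82, 12.35, 12.49 and 12.76 in MYC tumors, against 12.59, 12.60 and 12.74 in MYC NTL (0.01 ± 0.27). Cyp3a44 fell in DEN tumors by 1.57 ± 0.39 (adjusted p = 0.00238), and was not called in LT (-0.87 ± 0.45) or MYC (0.11 ± 0.45). Cyp3a13, best known from the intestine, was not called in any (-0.47 ± 0.25, -0.53 ± 0.29 and -0.47 ± 0.29 in DEN, LT and MYC).

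The dim Cyp3a57 was the 1 gene of the 38 called in opposite directions. It read 3.40, 3.28, 3.32, 3.17 and 3.37 in DEN tumors, against 3.46, 3.92, 3.73, 3.76 and 4.03 in DEN NTL. It read 3.38, 3.97 and 3.64 in LT tumors, against 3.11, 3.47, 3.46, 3.19 and 3.42 in LT NTL, and 3.57, 3.24, 3.30, 3.20 and 3.21 in MYC tumors, against 3.32, 3.36 and 3.35 in MYC NTL. The DEN groups did not overlap and the LT and MYC groups did, at -0.48 ± 0.10 in DEN (adjusted p = 0.000347), 0.33 ± 0.11 in LT (adjusted p = 0.0369) and -0.04 ± 0.11 in MYC. The LT call was lost without LT NTL replicate 1 (0.28) or 4 (0.30) or LT tumor replicate 2 (0.18) or 3 (0.34), with LT tumors 1 and 2 averaged (0.32), and with arrays centred on their medians (0.28, adjusted p = 0.0965). All of these signals are below the first quartile of all probe sets.

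The Cyp2d subfamily, whose mouse genes are the relatives of human CYP2D6, changed most widely in MYC tumors, with 8 of 10 genes lower than in MYC NTL. Against the LT/MYC controls 6 of 10 were lower in MYC tumors, beside 10.3% of all genes. MYC NTL itself lay above these controls by a median of 0.43 over the 10 genes, beside 0 over all genes, with 0 of 10 called. With only these groups in the fit, Cyp2d11, Cyp2d12 and Cyp2d13 were called higher in MYC NTL. Cyp2d10 was called higher there with arrays centred on their medians, shared stems averaged, dim genes left out, or the replicate number as a block. Cyp2d40 read 7.84, 7.72, 7.05, 7.03 and 7.20 in MYC tumors, against 9.64, 9.57 and 9.73 in MYC NTL. All tumors lay well below all NTL samples, at -2.28 ± 0.31 (4.86-fold lower, adjusted p = 3.63e-06). It read 8.15, 8.27, 8.30, 7.89 and 8.54 in DEN tumors, against 8.96, 8.84, 8.41, 9.21 and 8.96 in DEN NTL, and 7.21, 8.12 and 9.53 in LT tumors, against 8.95, 9.01, 9.33, 9.16 and 9.08 in LT NTL. Neither was called (-0.65 ± 0.27 and -0.82 ± 0.31), LT tumor 3 lying above all NTL samples, and without that tumor the LT change was -1.44. The MYC change differed from that in DEN (DEN minus MYC 1.63 ± 0.41, adjusted p = 0.00575) and from that in LT (LT minus MYC 1.46 ± 0.44, adjusted p = 0.0255). The second difference was lost without LT tumor replicate 3 (0.84) or MYC NTL replicate 1 (1.46) or 3 (1.42). It was also lost with only the LT and MYC tumor and NTL arrays in the fit.

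Cyp2d26 separated MYC from the other models by a small but even step. It read 12.82, 12.84, 12.81, 12.48 and 12.95 in MYC tumors, against 13.30, 13.25 and 13.25 in MYC NTL. It read 13.18, 13.58, 13.19, 13.39 and 13.18 in DEN tumors, against 13.20, 13.24, 13.11, 13.18 and 13.18 in DEN NTL, and 13.34, 13.51 and 13.33 in LT tumors, against 13.28, 13.25, 13.31, 13.40 and 13.32 in LT NTL. Only the MYC groups did not overlap, at -0.49 ± 0.09 (adjusted p = 0.000111), beside 0.12 ± 0.07 in DEN and 0.08 ± 0.09 in LT. Its change in DEN exceeded that in MYC by 0.61 ± 0.11 (adjusted p = 0.000368), and its change in LT exceeded that in MYC by 0.57 ± 0.12 (adjusted p = 0.00261). Of the 8 differences called between LT and MYC, that of Cyp2d26 was the 1 that passed in every leave-one-out fit.

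Cyp2d13, annotated as a transcribed pseudogene, and Cyp2c23 were the 2 genes of the 38 called lower in all 3 models. This is 5.26% of the 38 genes, beside 1.56% of all genes. Cyp2d13 read 9.77, 9.68, 9.86, 9.18 and 10.15 in DEN tumors, against 11.14, 10.99, 10.82, 11.28 and 11.09 in DEN NTL. It read 7.90, 7.24 and 10.71 in LT tumors, against 11.06, 11.49, 10.85, 11.20 and 11.05 in LT NTL, and 10.29, 10.08, 10.16, 9.81 and 9.82 in MYC tumors, against 11.76, 11.77 and 11.57 in MYC NTL. No tumor overlapped its NTL group, although LT tumor 3 came close to it. The changes were -1.34 ± 0.33 in DEN (adjusted p = 0.00213), -2.51 ± 0.38 in LT (adjusted p = 4.7e-05) and -1.67 ± 0.38 in MYC (adjusted p = 0.00191). With only the LT tumor and NTL arrays in the fit, the LT calls of Cyp2d13 (adjusted p = 0.0715) and Cyp2c23 (adjusted p = 0.0859) were lost, so that neither was then called in all 3 models. Averaging LT tumors 1 and 2 gave -1.99 (adjusted p = 0.00158) for Cyp2d13.

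The other Cyp2d calls were of 1.0 or less on the log2 scale, apart from that of Cyp2d12. Cyp2d22, proposed as the mouse counterpart of CYP2D6, fell in DEN (-0.79 ± 0.11) and MYC tumors (-0.82 ± 0.12) and was not called in LT (-0.26 ± 0.12). Cyp2d10 fell in DEN (-0.53 ± 0.12) and MYC (-1.0 ± 0.14) and was not called in LT (-0.28 ± 0.14). Cyp2d34 fell in DEN (-0.39 ± 0.12) and MYC (-0.50 ± 0.14, lost without MYC NTL replicate 3 at -0.43) and was not called in LT (-0.30 ± 0.14). The pseudogene Cyp2d37-ps fell in MYC (-0.96 ± 0.19) and was not called in DEN (-0.20 ± 0.16) or LT (-0.13 ± 0.19). Cyp2d11 fell in MYC (-0.69 ± 0.15) and LT (-0.41 ± 0.15), where the call was lost without LT NTL replicate 2 (-0.33) or 3 (-0.30) or LT tumor replicate 1 (-0.32) or 2 (-0.44) or with those 2 tumors averaged (-0.38), and was not called in DEN (0.02 ± 0.13). Paralogs of this cluster are near-identical in places, so that probe sets may share transcripts.

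Cyp2d12 rose in LT tumors mainly through 1 array. It read 4.80, 7.54 and 3.95 in LT tumors, against 3.75, 4.98, 4.03, 3.74 and 3.76 in LT NTL. Tumor 2 was far above the rest, and tumors 1 and 3 lay within the NTL range. The upper end of that range, 4.98, is LT NTL replicate 2 with low Xist. Tumor 1, like all 3 tumors high in Xist, lay above the other NTL arrays (3.74 to 4.03). The change of 1.38 ± 0.43 (adjusted p = 0.0209) was 0.33 (adjusted p = 0.507) without LT tumor replicate 2, 1.01 (adjusted p = 0.0856) with tumors 1 and 2 averaged, and 2.12 without LT tumor replicate 3. It read 3.81, 3.95, 3.73, 3.58 and 3.76 in DEN tumors, against 4.08, 4.10, 4.11, 4.43 and 4.18 in DEN NTL, and 4.49, 4.59, 5.60, 4.69 and 4.15 in MYC tumors, against 5.28, 4.62 and 4.91 in MYC NTL. Neither was called (-0.41 ± 0.37 and -0.23 ± 0.43), but the DEN fall was with only the DEN tumor and NTL arrays in the fit.

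Of the 3 Cyp2a genes, 1 was called lower in MYC tumors and none in DEN or LT tumors in the fit of all groups. Cyp2a12, a steroid hydroxylase, read 11.81, 10.77, 12.36, 10.47 and 11.11 in MYC tumors, against 12.56, 12.48 and 12.54 in MYC NTL. All MYC tumors lay below NTL, replicate 3 by little, and the change was -1.22 ± 0.25 (adjusted p = 0.000771). It read 12.51, 12.21, 11.93, 12.37 and 11.85 in DEN tumors, against 12.40, 12.43, 12.32, 12.52 and 12.47 in DEN NTL (-0.25 ± 0.22), and 11.45, 11.78 and 12.60 in LT tumors, against 12.64, 12.54, 12.35, 12.45 and 12.52 in LT NTL (-0.56 ± 0.25). Neither was called, and without LT tumor replicate 3 the LT change was -0.89. Cyp2a5, the coumarin and nicotine hydroxylase, was not called in DEN (0.39 ± 0.29), LT (0.28 ± 0.34) or MYC (-0.11 ± 0.34), with MYC tumor 3 at 10.32 and the other MYC tumors at 12.34 to 12.83. Cyp2a22 was not called either (-1.29 ± 0.93, -0.94 ± 1.07 and 0.88 ± 1.07).

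The tumors of a model differed more among themselves than its NTL samples did. In MYC, 35 of 38 genes had a larger SD in tumors than in NTL, with median SDs of 0.34 and 0.09, beside 75% of all genes. In DEN and LT, 29 of 38 genes each had a larger SD in tumors, beside 68.9% and 66.8% of all genes, with median SDs of 0.31 and 0.15 in DEN tumors and NTL and of 0.52 and 0.22 in LT tumors and NTL. The tumor groups hold arrays with a shared identifier stem in DEN and LT, and the groups differ in size, so the SDs are a description of these arrays.

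The size or direction of the change differed between models for part of the 38 genes, by a test of the difference of changes in the same fit. Between DEN and LT, 8 of 38 genes differed, all lower in DEN, where 7.61% of all genes were called in that direction and 6.3% in the other, and 5 of them passed in every leave-one-out fit (Cyp2c55, Cyp2j5, Cyp2j9, Cyp3a25 and Cyp3a57). With only the groups compared in the fit, the differences of Cyp2d12, Cyp2d22, Cyp2j5 and Cyp3a11 were lost and that of Cyp2c29 was called. Between DEN and MYC, 12 differed, 7 lower in DEN beside 7.98% of all genes and 5 higher in DEN beside 7.12%. The 7 were Cyp2c, Cyp2j and Cyp3a genes, and the 5 were Cyp2a12, Cyp2d11, Cyp2d26, Cyp2d37-ps and Cyp2d40. Of these 12, 8 passed in every leave-one-out fit (Cyp2c38, Cyp2c67, Cyp2d11, Cyp2d26, Cyp2d40, Cyp2j5, Cyp2j9 and Cyp3a25). Fitting only the groups compared lost the differences of Cyp2a12, Cyp2c38 and Cyp3a57, and those of Cyp2a22, Cyp3a11 and Cyp3a44 were then called. Between LT and MYC, 8 differed, 2 lower in LT beside 6.6% of all genes (Cyp2c66 and Cyp2c67) and 6 higher in LT beside 5.76% (Cyp2c23 and 5 Cyp2d genes). The differences of Cyp2c23, Cyp2d22, Cyp2d37-ps and Cyp2d40 were lost with only the groups compared in the fit.

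Tumors were also set against the control livers. In DEN tumors 20 of 38 genes were lower and 0 higher than in DEN controls, where 15.6% of all genes were called lower and 15% higher. Cyp2c54 (-3.96 ± 0.71) and Cyp2c50 (-3.29 ± 0.72) again had the largest falls among the called genes. In LT tumors 10 were lower and 1 higher than in the LT/MYC controls, where 7.73% and 8.78% of all genes were called, with Cyp2c54 (-3.51 ± 0.86), Cyp2d13 (-2.59 ± 0.40) and Cyp2c50 (-2.59 ± 0.87) falling most among the called genes and Cyp2d12 (1.36 ± 0.45) rising. All 3 LT tumors but only 1 of these 4 controls had high Xist. With the Xist level as a covariate 7 of these calls were lost, among them Cyp2c54, Cyp2c50 and Cyp2d12 but not Cyp2d13. With only the LT tumors and controls in the fit, 0 of all genes were called. The Cyp2c50 call was lost without any of the 4 control arrays (-2.66 to -2.46) or LT tumor replicate 3 (-1.06). With the replicate number as a block the Cyp2d40 call of -0.94 ± 0.32 was lost (-0.95, adjusted p = 0.0563). Without LT tumor replicate 3 the Cyp2c54 change was -2.18 and not called, and the Cyp2d12 rise was 0.31 without LT tumor replicate 2 and 2.10 without LT tumor replicate 3, its call being lost without any of the 4 control arrays as well (1.25 to 1.40).

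In MYC tumors 13 were lower and 1 higher than in the LT/MYC controls, where 10.3% and 10.2% of all genes were called. Cyp2c37 (-2.28 ± 0.60, and -1.47 without MYC tumor replicate 3) and Cyp2c23 (-1.92 ± 0.24) had the largest falls among the called genes, and Cyp2c39 rose (2.57 ± 0.83, adjusted p = 0.0268). Cyp2c39 read 8.49, 8.35, 9.77 and 7.78 in these controls, so that 4 of 5 MYC tumors lay above all of them and MYC tumor 3 below. Its call was lost in 7 of 9 leave-one-out fits with changes of 2.30 to 2.53, and the change was 3.49 without MYC tumor replicate 3. With only the MYC tumors and these controls in the fit, the Cyp2c37 and Cyp2c39 calls were lost.

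Few of the 38 genes passed the test between non-tumorous and control liver. In DEN NTL 0 of 38 genes were called against DEN controls by limma, where 0.197% of all genes were called, and 2 had an unadjusted p under 0.05. In MYC NTL 0 of 38 were called against the LT/MYC controls, where 3.83% of all genes were called, and 6 had an unadjusted p under 0.05. With only MYC NTL and these controls in the fit, 5 of 38 were called, 2 lower and 3 higher, and 1537 of all 18820 genes. In LT NTL 1 gene was called, beside 2.41% of all genes. This was Cyp3a44, which read 10.73, 8.57, 10.54, 10.77 and 10.84 in LT NTL, against 8.32, 7.99, 9.23 and 8.47 in the controls. LT NTL replicate 2, with low Xist, lay among the controls and the 4 arrays with high Xist above them. The change was 1.79 ± 0.42 (adjusted p = 0.0182), its call was lost without LT NTL replicate 1 (1.68) or 5 (1.65) or control replicate 1 (1.73) or 2 (1.62), and no gene of the 38 was called with the Xist level as a covariate.

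Several genes followed Xist on most arrays of liver without tumor. Cyp3a16, a female-predominant P450, read 11.46, 10.08, 10.81 and 11.32 in the 4 LT NTL arrays with high Xist and 5.66 in the 1 with low Xist. In the LT/MYC controls it read 10.56 in the array with high Xist and 3.54, 3.40 and 4.87 in the other 3. Cyp2d9, the male-predominant testosterone hydroxylase, ran the other way, with 7.68, 8.36, 7.40 and 6.94 in the LT NTL arrays with high Xist and 11.85 in the other, and 7.63 in the control with high Xist and 11.70, 11.66 and 11.83 in the other 3. Cyp2a22 read 11.54, 11.54, 12.19 and 12.10 in the LT NTL arrays with high Xist and 6.60 in the other. DEN control replicate 1 had low Xist (5.41) and yet read 11.09 for Cyp2a22, 9.78 for Cyp2c39 and 10.16 for Cyp2d9, near the values of DEN control replicate 3 with high Xist (11.74, 10.25 and 9.81), but not for Cyp3a16 (3.74, against 7.66).

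LT tumors 1 and 2 departed from this relation and LT tumor 3 did not. All 3 had high Xist (12.10, 12.22 and 11.98). Cyp2d9 read 10.72 and 10.85 in LT tumors 1 and 2 and 6.30 in LT tumor 3, and Cyp2a22 read 9.24 and 8.50 in tumors 1 and 2 and 11.81 in tumor 3. Cyp3a16 read 7.51 and 3.98 in tumors 1 and 2 and 11.56 in tumor 3. Tumor 3 thus lay within or just outside the range of the LT NTL arrays with high Xist for each of the 3 genes, and tumors 1 and 2 lay outside it, on the side of the array with low Xist. Over all 3 tumors none of the 3 genes was called (Cyp2d9 0.85 ± 0.91 and Cyp3a16 -2.18 ± 1.43), and without LT tumor replicate 3 the changes were 2.34 for Cyp2d9 and -4.13 for Cyp3a16. The latter changes rest on LT tumors 1 and 2, which may be 1 mouse. With the Xist level as a covariate Cyp3a16 was called over all 3 tumors, and Cyp2d9 and Cyp2a22 were not. In DEN tumors, all low in Xist, Cyp3a16 read 6.63 and 7.86 in tumors 3 and 5 and 3.31, 3.83 and 4.52 in the other 3, against 3.88 to 4.16 in DEN NTL (1.26 ± 1.24, not called). In the fit of all groups Cyp2d9 was not called in DEN (-0.77 ± 0.78) or MYC (-0.71 ± 0.91), and neither was Cyp3a16 in MYC (-0.11 ± 1.43). Cyp2d9 nonetheless read 10.71 to 11.28 in DEN tumors, against 11.73 to 12.02 in DEN NTL. It read 11.20 to 11.58 in MYC tumors, against 11.95 to 12.24 in MYC NTL. With only the groups compared in the fit, Cyp2d9 was called lower in DEN and in MYC tumors.

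**Figure D4:**
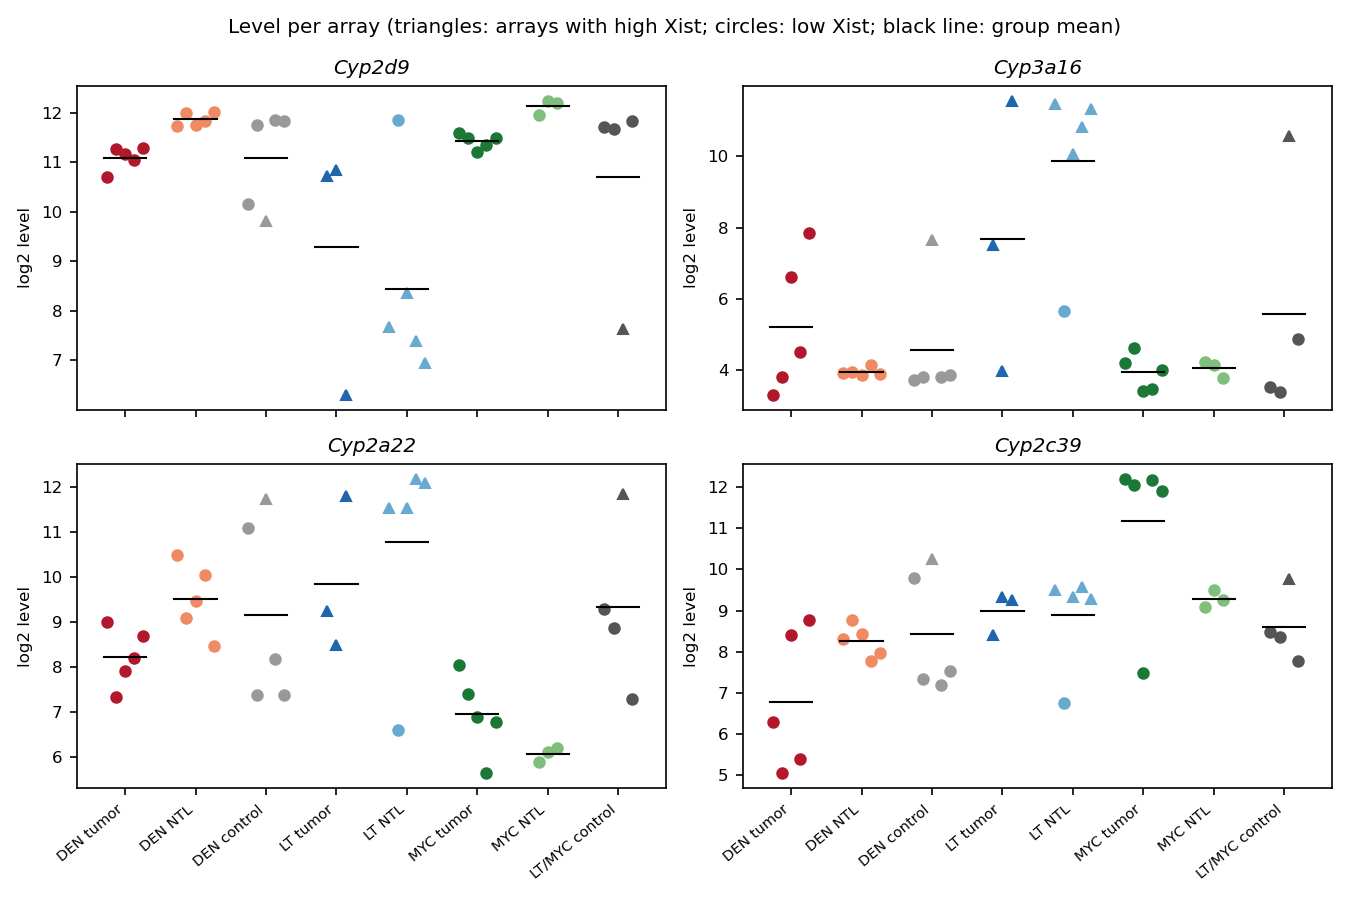
Log2 level (vertical axis) of Cyp2d9, Cyp3a16, Cyp2a22 and Cyp2c39 on each array, by group (horizontal axis); triangles are arrays with high Xist, circles arrays with low Xist, and the black line is the group mean. In LT tumors, 2 of 3 triangles for Cyp2d9 lie above 10, and in LT NTL all 4 triangles lie below 9.

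Of the genes that serve or regulate P450 enzymes, 34 of a list of 38 were measured. In DEN tumors 9 were lower and 5 higher than in NTL, beside 16.7% and 15.6% of all genes. In LT tumors 8 were lower and 1 higher, beside 9.73% and 10.7% of all genes, and in MYC tumors 11 were lower and 3 higher, beside 10.3% and 11.5%. In DEN tumors Igf1, a growth hormone target, fell by 1.66 ± 0.32, the clock-controlled factor Hlf by 1.14 ± 0.17 and the bile acid receptor Nr1h4 by 1.08 ± 0.14, and Socs2, which damps growth hormone signalling, rose by 1.61 ± 0.56, Foxa3 by 1.20 ± 0.22 and the glucocorticoid receptor Nr3c1 by 0.38 ± 0.10. In LT tumors the liver factor Onecut1 fell by 2.13 ± 0.69, Hlf by 1.00 ± 0.19 and Foxa1 by 0.76 ± 0.24, and Hmox1, which breaks down heme, rose by 1.61 ± 0.23. In MYC tumors Esr1 fell by 1.61 ± 0.54, Tef, a relative of Hlf, by 1.53 ± 0.31 and Alas1, the first enzyme of heme synthesis, by 1.35 ± 0.39, and Nr0b2 rose by 1.21 ± 0.36, Hmox1 by 0.85 ± 0.23 and Stat5a by 0.47 ± 0.16.

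Among P450 genes of other subfamilies, lower calls outnumbered higher ones in each model. Of 50 such genes 19 were lower and 4 higher in DEN tumors (16.7% and 15.6% of all genes), 12 lower and 3 higher in LT tumors (9.73% and 10.7%), and 11 lower and 0 higher in MYC tumors (10.3% and 11.5%). The largest falls were Cyp4a14 (-5.94 ± 0.78), Cyp2b10 (-5.37 ± 0.60) and Cyp8b1 (-3.94 ± 0.69) in DEN, Cyp2b10 (-3.82 ± 0.70), Cyp2b13 (-3.70 ± 1.32) and Cyp2f2 (-2.57 ± 0.83) in LT, and Cyp2b10 (-4.48 ± 0.70), Cyp46a1 (-4.19 ± 0.24) and Cyp2u1 (-3.32 ± 0.66) in MYC. The largest rises were Cyp39a1 (3.04 ± 0.50), Cyp17a1 (2.00 ± 0.69) and Cyp4f16 (1.5 ± 0.20) in DEN, and Cyp1b1 (1.95 ± 0.50), Cyp4f18 (1.25 ± 0.17) and Cyp4f16 (1.02 ± 0.23) in LT. Of 9 hepatocyte markers, 5 were lower in MYC tumors (list mean 13.10 to 13.22, against 13.25 to 13.26 in MYC NTL), 1 was lower and 2 higher in DEN tumors, and 0 were called in LT tumors.

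Markers of other cells moved as well. In DEN tumors 6 of 6 Kupffer cell markers were lower (list mean 6.32 to 7.48, against 8.27 to 9.25 in DEN NTL) and 4 of 6 cholangiocyte markers higher (6.35 to 6.75, against 5.29 to 5.55 in DEN NTL), with 3 of 10 immune markers lower and 1 higher, 1 of 8 endothelial markers lower and 3 higher, and 2 of 8 stellate markers lower and 2 higher. In LT tumors 7 of 10 immune markers were higher (7.15 to 8.16, against 6.48 to 6.89 in LT NTL) and 4 of 8 stellate markers higher (8.39 to 10.05, against 7.96 to 8.30 in LT NTL), with 2 Kupffer markers lower, 1 cholangiocyte marker higher, and 2 endothelial markers lower and 4 higher. In MYC tumors 4 of 8 stellate markers were lower (6.82 to 7.98, against 7.96 to 8.18 in MYC NTL), with 1 Kupffer marker lower and 1 endothelial marker higher. Their part in the P450 changes was not tested.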

How the data were processed

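Gene expression was measured in mouse liver on 35 Affymetrix whole-transcript arrays in 8 groups. The submitters' processing notes name RMA, without a version in the sources used here, and the values the authors deposited are its log2 signals per probe set. Of 35556 probe sets, 21218 carry 1 gene symbol in the platform annotation, 1881 several and 12457 none. The brightest single-symbol probe set per gene gave 18820 genes. A further 5 probe sets that name several Cyp2a, Cyp2c or Cyp3a genes were not used, and paralogs may share probes.

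A linear model with 1 mean per group was fitted over all arrays with limma 3.58.1 (R 4.3.3). P-values were adjusted by the Benjamini-Hochberg method over 18820 genes and called under 0.05, two-sided. Errors of changes are standard errors (SE), and spreads are standard deviations (SD). Precision is limited by 3 to 5 arrays per group, and where arrays share a mouse the spread may be partly technical. Same-numbered arrays of different groups came from different animals, and their deviations correlated at -0.38 to 0.29, over 0.1 in 10 of 35 pairs. In 1 of the 9 comparisons, LT tumors against controls, all 3 pairs exceeded 0.1 (0.14 to 0.23), and there the fit with the replicate number as a block is given where it changes a call. The linear model fit was tested on simulated data, for the tumor minus NTL comparisons only.

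Genes named with every array's value were the largest falls and rises per model, the gene with the brightest control signal per subfamily, genes called in opposite directions, and the largest changes against controls. Others were added after their values were seen. The members and lists were chosen with earlier results of these data known. Alternatives were leaving out each array, fitting only the groups compared, centring arrays on their median, leaving out dim genes, a replicate block, averaging arrays of a shared identifier stem, the Xist level as a covariate, an intensity trend, and averaging all probe sets of a gene. Promoter windows came from RefSeq (GRCm38.p6) for 31 of the 38 genes and were aligned with Biopython 1.88.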

Additional observations from a re-analysis of the deposited data

Results flagged for a closer look

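In each of the 38 genes, the 6 groups of 4 or 5 arrays were tested for a single array far from the rest. By chance about 1 in 20 independent groups holds one. The 38 genes share the same arrays and are not independent, so the count is a description only. Of these 228 groups 32 held such an array. MYC tumor replicate 3 was that array for 8 genes: Cyp2c54 at 6.04 (other MYC tumors 11.14 to 11.63), Cyp2c50 at 6.24 (10.69 to 11.87), Cyp2c37 at 6.86 (10.44 to 11.38), Cyp2c39 at 7.49 (11.91 to 12.20), Cyp2c38 at 7.64 (11.78 to 11.91), Cyp3a13 at 9.30 (10.21 to 10.54), Cyp2a5 at 10.32 (12.34 to 12.83) and Cyp2d22 at 11.29 (11.65 to 11.79). LT NTL replicate 2, the 1 array of its group with low Xist, was that array for 7: Cyp2d12 at 4.98 (3.74 to 4.03), Cyp3a16 at 5.66 (10.08 to 11.46), Cyp2a22 at 6.60 (11.54 to 12.19), Cyp2c39 at 6.76 (9.28 to 9.57), Cyp3a44 at 8.57 (10.54 to 10.84), Cyp2c38 at 9.81 (11.04 to 11.45) and Cyp2c37 at 12.74 (12.95 to 12.99).

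The 2 control arrays with high Xist held 7 more. In LT/MYC control replicate 3 these were Cyp2d12 at 3.73 (4.17 to 4.19), Cyp2d9 at 7.63 (11.66 to 11.83), Cyp2j6 at 9.11 (9.79 to 9.87) and Cyp3a11 at 12.43 (12.77 to 12.79), and in DEN control replicate 3 Cyp3a16 at 7.66 (3.74 to 3.87), Cyp3a25 at 12.49 (12.84 to 12.97) and Cyp2c23 at 12.52 (12.76 to 12.83). In DEN tumors they were Cyp2j9 at 7.76 in replicate 1 (5.53 to 6.16), Cyp2c67 at 10.23 (11.46 to 11.84) and Cyp3a11 at 11.29 (11.98 to 12.25) in replicate 2, and Cyp2d11 at 5.44 (5.12 to 5.17) and Cyp2d22 at 11.17 (11.49 to 11.59) in replicate 4. The remaining 5 were Cyp3a57 at 3.57 in MYC tumor replicate 1 (3.20 to 3.30), Cyp2j13 at 4.17 in MYC tumor replicate 5 (4.33 to 4.36), Cyp2c65 at 2.71 in LT NTL replicate 1 (2.34 to 2.43), Cyp2c29 at 12.88 in DEN NTL replicate 1 (13.09 to 13.15) and Cyp2c65 at 2.95 in DEN control replicate 4 (2.47 to 2.60).

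The change between tumor and NTL differed between 2 models in 28 of 114 tests at an adjusted p under 0.05 (limma). The DEN change minus the LT change was -4.24 for Cyp2c55, -2.0 for Cyp2j5, -1.79 for Cyp2d12, -1.71 for Cyp2j9, -1.29 for Cyp3a25, -1.14 for Cyp3a11, -0.81 for Cyp3a57 and -0.53 for Cyp2d22. The Cyp2d12 difference was -0.74 and that of Cyp2d22 -0.33 without LT tumor replicate 2. The DEN change minus the MYC change was -3.79 for Cyp2c38, -3.26 for Cyp2c55, -2.21 for Cyp2j9, -2.16 for Cyp2j5, -1.06 for Cyp2c67, -0.90 for Cyp3a25, -0.44 for Cyp3a57, 0.61 for Cyp2d26, 0.71 for Cyp2d11, 0.76 for Cyp2d37-ps, 0.97 for Cyp2a12 and 1.63 for Cyp2d40. The LT change minus the MYC change was -0.95 for Cyp2c67, -0.52 for Cyp2c66, 0.56 for Cyp2d22 (0.37 without LT tumor replicate 2), 0.57 for Cyp2d26, 0.72 for Cyp2d10, 0.82 for Cyp2d37-ps, 1.12 for Cyp2c23 and 1.46 for Cyp2d40 (0.84 without LT tumor replicate 3).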

How the results depend on the processing

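The DEN counts were the steadiest. With each array left out in turn, 18 to 20 of the 38 genes were called between DEN tumors and NTL, 17 to 21 between DEN tumors and controls, and 0 to 0 between DEN NTL and controls. Between LT tumors and NTL the range was 7 (without LT tumor replicate 1) to 19 (without LT tumor replicate 3), between LT tumors and controls 5 to 11, and between LT NTL and controls 0 to 4. Between MYC tumors and NTL it was 10 to 15, between MYC tumors and controls 11 to 13, and between MYC NTL and controls 0 to 1. For the differences of changes it was 5 to 12 for DEN against LT, 8 to 16 for DEN against MYC, and 2 to 8 for LT against MYC. Of the calls between tumor and NTL, 18 of 19 in DEN, 4 of 12 in LT and 9 of 14 in MYC passed in every such fit.

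Fitting only the groups compared gave 3 calls between LT tumors and NTL, 0 between LT tumors and controls (limma called 0 of all genes there), 5 between MYC NTL and controls (2 lower and 3 higher), 5 for DEN against LT and 4 for LT against MYC. Averaging arrays of a shared identifier stem left 5 calls between LT tumors and NTL, 6 between LT tumors and controls and 1 between MYC NTL and controls. With Xist as a covariate 4 genes were called between LT tumors and controls and 0 between LT NTL and controls. Centring arrays gave 2 calls between LT NTL and controls and 1 between MYC NTL and controls, and leaving out dim genes gave 1 for the second. The replicate block gave 1 call between MYC NTL and controls and 4 for LT against MYC, and moved no other count by over 1.5 times. It lost the calls of Cyp2d40 between LT tumors and controls, Cyp2d11 and Cyp2j13 between LT tumors and NTL, and Cyp2c37 between MYC tumors and NTL. Over all settings and genes, 8114 single results kept their side of the threshold, 312 fell under it and 102 passed it. No call became a call in the opposite direction, while changes that were not called could change sign. The causes were not tested.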
